A study of Mus musculus with 24 samples.

Results

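The mRNAs of the cap-binding complex eIF4F, of its cofactors and of the paralogs of eIF4E were followed in mouse embryonic fibroblasts with 2 or 1 intact alleles of Eif4e, before and after transformation with Ras and Myc. The members were 10 genes listed by symbol (Eif4e, Eif4e2, Eif4e3, Eif4g1, Eif4g2, Eif4g3, Eif4a1, Eif4a2, Eif4b and Eif4h), and the symbol of a probe set in the platform annotation, not its values, decided membership. Of these, 8 genes were measured, with 9 of the 25668 probe sets on the array, because Eif4e had 2. Eif4g1 and Eif4a1 were not analysed here, since no probe set carried either symbol alone in the annotation used. Both the wild-type (WT) and the Eif4e+/- fibroblasts (heterozygous, here Het) came from mid-gestation embryos (E13.5), with 3 embryos of each genotype. Cells of each embryo were studied as an early passage primary culture without an oncogene and as a matched transformed culture, all in exponential growth. Total RNA and RNA of high molecular weight polysomes were hybridised to separate arrays, so that 12 cultures gave 24 arrays in 8 groups of 3. The numbered embryos were the replicates. How the oncogenes were introduced, and whether a transformed culture was a clone or a pool, is not given in the sources used here. The labels name no promoter or Cre driver for the Eif4e allele.

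eIF4E binds the cap at the 5′ end of mRNAs. It joins a scaffold protein of the eIF4G family and the RNA helicase eIF4A to form eIF4F, which brings the small ribosomal subunit to the mRNA. eIF4B and eIF4H are RNA-binding cofactors that stimulate the helicase. The paralogs eIF4E2 and eIF4E3 also bind caps but differ from eIF4E in their partners, and eIF4E2 is best known as part of a repressor of translation. Eif4g2 encodes a scaffold relative, also called DAP5, that lacks the region that binds eIF4E. Eif4e is a textbook target gene of MYC, which binds as a dimer with MAX to the sequence CACGTG, the canonical E-box.

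Because MYC was one of the transforming oncogenes, the 250 bases before the annotated start of 3 members are shown, 5′ to 3′ on the strand of the gene, with each CACGTG in capitals. They were taken from RefSeq on GRCm38.p6: Eif4e on the plus strand at chr3:138527018-138527267, Eif4h on the minus strand at chr5:134639410-134639659 and Eif4b on the plus strand at chr15:102073523-102073772. Eif4e and Eif4b are shown because their total RNA was higher after transformation, and Eif4h because it holds the motif and its total RNA did not pass the test.
Eif4e: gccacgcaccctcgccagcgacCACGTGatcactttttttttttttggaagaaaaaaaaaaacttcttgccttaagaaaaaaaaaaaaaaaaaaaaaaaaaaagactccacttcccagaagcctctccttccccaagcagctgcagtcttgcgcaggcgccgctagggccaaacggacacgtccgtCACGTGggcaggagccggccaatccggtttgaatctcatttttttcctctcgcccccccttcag
Eif4h: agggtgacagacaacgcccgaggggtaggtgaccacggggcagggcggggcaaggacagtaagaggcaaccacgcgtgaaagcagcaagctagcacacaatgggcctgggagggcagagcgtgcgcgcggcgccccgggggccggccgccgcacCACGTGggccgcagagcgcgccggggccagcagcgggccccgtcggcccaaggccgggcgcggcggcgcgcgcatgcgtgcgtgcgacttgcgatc
Eif4b: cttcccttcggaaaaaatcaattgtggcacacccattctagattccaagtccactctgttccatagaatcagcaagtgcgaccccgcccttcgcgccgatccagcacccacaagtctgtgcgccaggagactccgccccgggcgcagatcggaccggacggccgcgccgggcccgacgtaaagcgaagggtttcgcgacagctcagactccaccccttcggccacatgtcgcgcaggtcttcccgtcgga
The Eif4e window held 2 copies, whose first bases lay 228 and 64 bases before the start, the Eif4h window held 1 copy at 96 bases, and the Eif4b window held 0. RefSeq gives Eif4e a further start upstream, whose window at chr3:138525941-138526190 held 0 copies, so the printed window lies within the span of that longer gene model. The motif equals its own reverse complement, so a single search covered both strands, and no other motif was searched. It occurred in 6.02% of the 32851 windows of the same length in the table and at least 2 copies occurred in 0.429%. Counted by gene, 6.86% of 27025 genes held it in at least 1 window. Among the members, 8 of 10 had a window and 4 held the motif, the other two being Eif4a1 (1 copy, 189 bases before the start) and Eif4g1 (1 copy, 54 bases before the start). Eif4e3 and Eif4g2 had no entry. A match describes these letters and does not show binding.

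All values below are log2 intensities after robust multi-array averaging (RMA) as deposited, and a difference of log2 values is a log ratio. The mean of an array was 7.46 to 7.5 for total and 3.78 to 3.79 for polysomal arrays, which shows that the fractions were scaled apart. Translational efficiency (TE), the polysomal minus the total log2 value of the same culture, therefore has no absolute scale and its negative sign carries no meaning. Every member probe set lay above the 40th percentile of the array on 12 of 12 total and 12 of 12 polysomal arrays, and all 8 genes were among the 14830 genes tested. The polysomal percentiles were low, however, from 3.13 to 3.32, and the polysomal minima of Eif4e (3.67) and Eif4e3 (3.65) lay near them. In total RNA 12 of 14 fibroblast markers were above the 40th percentile on all 12 arrays, against 1 of 7 leukocyte, 0 of 5 endothelial, 2 of 5 epithelial and 3 of 5 neural markers, and RMA values have no zero. On polysomal arrays the SD over probe sets was 1.15 to 1.44, with the smallest values on those of WT untransformed embryo 1 (1.15) and WT transformed embryo 3 (1.25). Intensities of different probe sets are not compared with each other.

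Eif4e total RNA was lower in Het than in WT cells in both states, with no overlap between the genotypes, but the differences did not pass the test across all genes. In untransformed WT cells the main Eif4e probe set (10496485) read 9.21, 9.05 and 9.03 for embryos 1 to 3, and in untransformed Het cells it read 8.69, 8.88 and 8.83. In transformed WT cells it read 9.80, 9.67 and 9.40, and in transformed Het cells 9.10, 8.84 and 9.21. In each state the highest Het culture was below the lowest WT culture. The Het level was 81.3% of the WT level in untransformed cells (log2 difference -0.30 ± 0.12, SE; adjusted p = 1 by limma) and 67.2% in transformed cells (-0.57 ± 0.12; adjusted p = 0.20 by limma). Over the means of both states of an embryo it was 73.9% (-0.44 ± 0.09; adjusted p = 0.665 by limma). The exact two-sided permutation p was 0.1 in each of these 3 comparisons, the smallest that 3 embryos against 3 allow. Any gene without overlap has this p, and the share of all genes without overlap was not counted. Before adjustment, the limma p-values of Eif4e in these comparisons were 0.0303, 0.00058 and 0.00152. In these comparisons of 14830 genes 0%, 0.0472% (7 genes) and 0% were called at an adjusted p under 0.05, while 352, 1379 and 971 genes had an unadjusted p under 0.05. In bulk RNA, fewer cells with the transcript and less transcript per cell cannot be told apart.

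The second Eif4e probe set (10496490), which the annotation ties to a different transcript record, gave smaller differences between the genotypes. It read 7.84, 7.72 and 7.77 in untransformed WT cells against 7.85, 7.47 and 7.66 in untransformed Het cells, and 7.89, 7.83 and 7.89 in transformed WT cells against 7.67, 7.57 and 7.85 in transformed Het cells. The genotypes overlapped in both states, and Het embryo 1 before transformation was the highest of the 6 untransformed cultures. The Het level was 92.4% of WT in untransformed cells (-0.11 ± 0.10) and 88.6% in transformed cells (-0.17 ± 0.10). As the mean of both states, it was 90.5% (-0.14 ± 0.08; exact permutation p = 0.1), and here the 3 Het embryos lay below the 3 WT embryos. Both probe sets thus read lower in Het cells on average, by different amounts. Where either probe set lies relative to the disrupted part of the allele is not given in the sources used here, so neither is read here as a measure of the deletion. With the mean of both probe sets in place of the main one, the difference in transformed cells was -0.37 (adjusted p = 0.259).

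**Figure D1:**
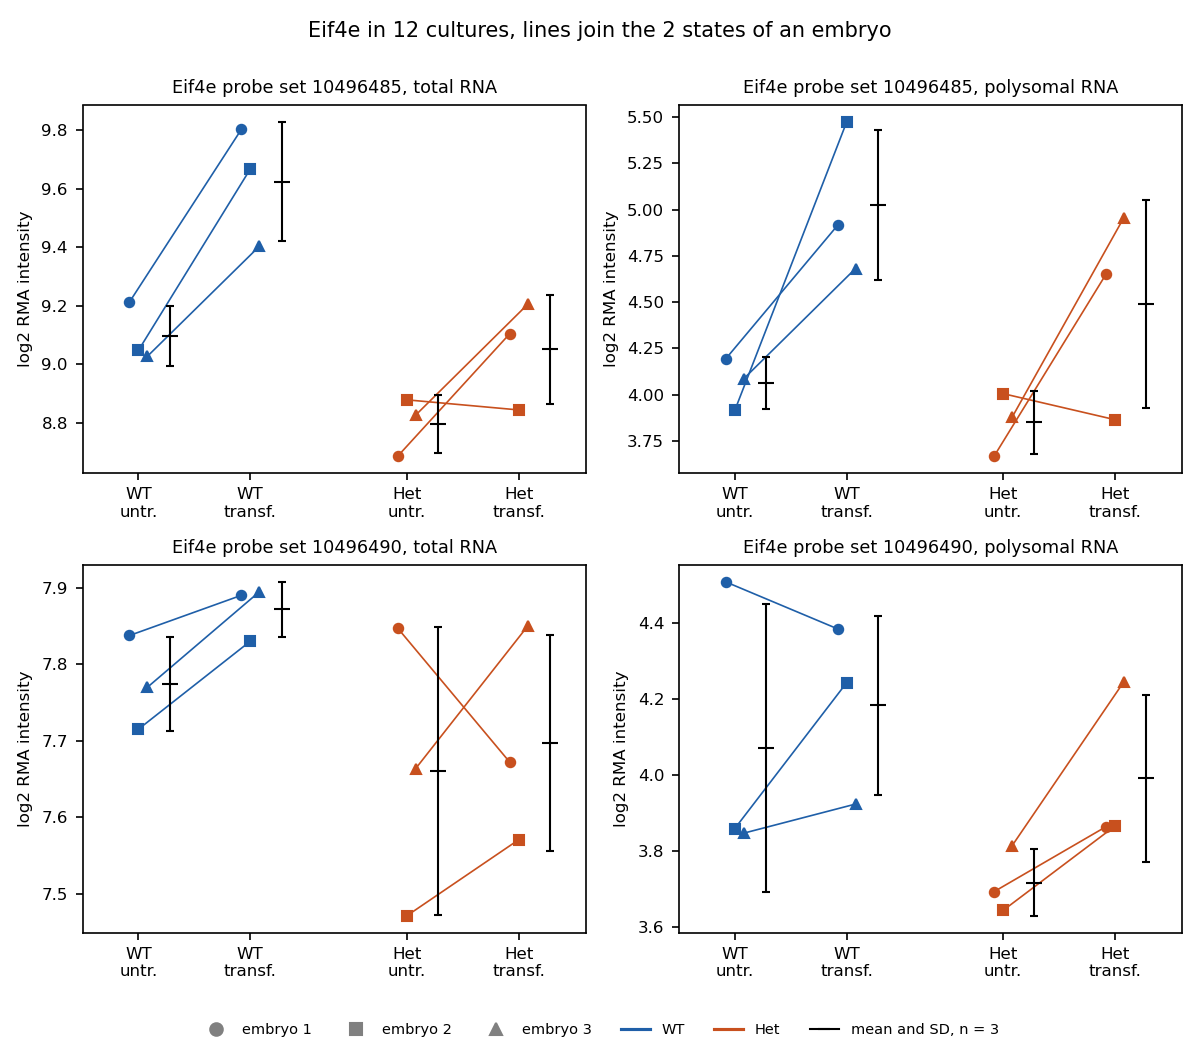
Log2 RMA intensity of the 2 Eif4e probe sets in total and polysomal RNA for each culture; symbols give the embryo, lines join the untransformed and transformed culture of an embryo, and bars show the mean ± SD of 3 cultures. In total RNA the main probe set (10496485) spans 9.03 to 9.80 in WT and 8.69 to 9.21 in Het cultures, and the genotypes do not overlap within a state.

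On polysomes, Eif4e followed total RNA in direction but with a wider spread. The main probe set read 4.19, 3.91 and 4.09 in untransformed WT, 3.67, 4.01 and 3.88 in untransformed Het, 4.92, 5.47 and 4.68 in transformed WT and 4.65, 3.87 and 4.96 in transformed Het cultures. Here the genotypes overlapped in both states. The polysomal level of Het cells was 86.2% of WT before transformation (-0.21 ± 0.27) and 69.1% after it (-0.53 ± 0.27), with an adjusted p of 1 by limma in both. Eif4e TE lay between -5.13 and -4.94 in untransformed WT and between -5.02 and -4.87 in untransformed Het cells, and the Het minus WT difference was 0.08 ± 0.22 there and 0.04 ± 0.22 in transformed cells. Both TE differences were smaller than their standard errors. In untransformed cells the TE difference on the second probe set had the opposite sign (-0.24 ± 0.21), as had the mean of both probe sets (-0.08). On the second probe set the polysomal values of untransformed Het cells (3.69, 3.64 and 3.81) were all below those of WT (4.51, 3.86 and 3.85), with a difference of -0.35 ± 0.21 (exact permutation p = 0.1) that did not pass limma's test across all probe sets (adjusted p = 1). For genotype 0% of all genes were called in polysomal RNA and 0% in TE, in untransformed cells, in transformed cells and over both states alike. At an unadjusted p under 0.05 there were 247, 478 and 476 genes in polysomal RNA and 215, 430 and 400 in TE.

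Eif4e total RNA rose with transformation on the main probe set. Between the cultures of the same embryo, the main probe set rose by 0.59, 0.62 and 0.38 in WT embryos 1 to 3 and by 0.42 and 0.38 in Het embryos 1 and 3, while Het embryo 2 changed by -0.03. The transformed level was 131% of the untransformed level over both genotypes (0.39 ± 0.08; adjusted p = 0.00964 by limma with embryo as a block), and 5 of 6 embryos were higher (exact sign-flip p = 0.0625, smallest possible 0.031). This call was kept when any 1 embryo was left out. The second probe set alone did not pass the test, with 0.07 ± 0.06 (adjusted p = 0.46 by limma over all probe sets). With the mean of both probe sets, which includes the main one, the change was 0.23 (adjusted p = 0.0192). In WT cells alone the transformed level on the main probe set was 144% (0.53 ± 0.11; adjusted p = 0.0204 by limma). This did not pass without WT embryo 1 (adjusted p = 0.105) or WT embryo 2 (0.0971). In Het cells it was 119% (0.25 ± 0.11; adjusted p = 0.165). The test of whether the response differed between the genotypes gave -0.27 ± 0.15 (adjusted p = 0.916), so a difference in response was not established. Transformation changed much of the transcriptome. In total RNA 16.7% of all genes were called in WT (7.62% higher and 9.08% lower), 14.3% in Het (5.68% higher and 8.58% lower) and 30.8% over both genotypes (15.0% higher and 15.8% lower). Fibroblast markers moved with it, with a list mean of 10.29 in WT and 10.25 in Het untransformed cells against 9.51 and 9.63 in transformed cells, while the epithelial list went from 7.32 in both genotypes to 7.84 and 7.89 and the leukocyte list from 7.51 and 7.42 to 6.81 and 6.60. The neural list went from 8.18 and 8.26 to 7.56 and 7.60, and the endothelial list from 6.86 and 6.71 to 6.40 and 6.26. Their part in the changes of the members was not tested.

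In polysomal RNA Eif4e was also higher after transformation in 5 of 6 embryos. The changes were 0.72, 1.56 and 0.60 in WT and 0.98, -0.14 and 1.08 in Het embryos 1 to 3, and total and polysomal changes had the same sign in 6 of 6 embryos. The transformed level was 174% of the untransformed one (0.80 ± 0.21; adjusted p = 0.0565 by limma; exact sign-flip p = 0.0625), which missed the threshold. Without WT embryo 3, which holds a polysomal array of small SD, it passed (adjusted p = 0.0155), and without Het embryo 2 it passed as well (0.99; adjusted p = 0.0441). TE of Eif4e was higher by 0.41 ± 0.17 (adjusted p = 0.282). The embryos differed in this, from -5.13 before to -4.20 after transformation in WT embryo 2 and from -4.87 to -4.98 in Het embryo 2. The second probe set did not pass the test for transformation on polysomes either, with 0.19 ± 0.13 (adjusted p = 0.466 by limma over all probe sets).

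Of the paralogs, Eif4e3 fell with transformation and Eif4e2 did not pass the test. Eif4e3 total RNA was 8.65, 8.51 and 8.72 in untransformed WT and 8.70, 8.75 and 8.73 in untransformed Het cells. After transformation it was 8.65, 7.71 and 8.63 in WT and 7.99, 8.35 and 7.91 in Het cells. The 3 transformed Het cultures lay below all untransformed ones, whereas WT embryos 1 and 3 differed by less than 0.1 between the states. The transformed level was 72.2% of the untransformed one over both genotypes (-0.47 ± 0.12; adjusted p = 0.0232 by limma; lower in 5 of 6 embryos, exact sign-flip p = 0.0625) and 64.0% in Het cells (-0.64 ± 0.16; adjusted p = 0.0451). In WT cells it was 81.5% (-0.30 ± 0.16; adjusted p = 0.269), and the difference of the responses was -0.35 ± 0.23 (adjusted p = 0.916). The call over both genotypes was lost without Het embryo 1 (adjusted p = 0.0775) or Het embryo 3 (0.0849). The call in Het cells was lost without WT embryo 1 (0.0514) or Het embryo 1 (0.195), 2 (0.0742) or 3 (0.228). Polysomal Eif4e3 was lower in 6 of 6 embryos (-0.43 ± 0.14; exact sign-flip p = 0.031), with an adjusted p of 0.106 by limma, and TE differed by 0.04 ± 0.14.

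Eif4e2 total RNA spanned 10.31 to 10.50 in untransformed and 10.47 to 10.62 in transformed cultures. It was higher after transformation in 5 of 6 embryos, by 0.15 ± 0.05 on average (adjusted p = 0.0744 by limma), and it passed without the embryo block (adjusted p = 0.0446) or with quantile normalization (0.0431). Het embryo 3 changed by -0.02. Neither paralog was called for genotype. The Het minus WT difference in untransformed and transformed cells was 0.06 ± 0.07 and -0.01 ± 0.07 for Eif4e2, and 0.10 ± 0.21 and -0.25 ± 0.21 for Eif4e3.

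The scaffold mRNAs Eif4g2 and Eif4g3 were slightly lower on the deposited scale after transformation in every embryo, without passing the test across all genes. Eif4g2 total RNA was 11.95, 11.91 and 12.03 in untransformed WT and 11.98, 12.02 and 11.97 in untransformed Het cells, against 11.71, 11.84 and 11.93 and 11.86, 11.87 and 11.90 after transformation. The change was -0.13 ± 0.05, or 91.6% of the untransformed level (adjusted p = 0.102 by limma), and with quantile normalization it was -0.01 (adjusted p = 0.849), so it depended on the scaling of the arrays. Eif4g3 total RNA changed by -0.14 ± 0.05 (adjusted p = 0.105; -0.10 with quantile normalization), from -0.27 in Het embryo 1 to -0.01 in Het embryo 2. On the deposited scale 6 of 6 embryos were lower for both genes and the exact sign-flip p was 0.031, the smallest that 6 embryos allow. On polysomes the direction was not shared, since Eif4g2 was higher in 3 of 6 embryos (-0.01 ± 0.18) and Eif4g3 in 2 of 6 (-0.33 ± 0.18). Genotype differences of both scaffolds in total RNA were 0.03 to 0.13 and none passed.

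**Figure D2:**
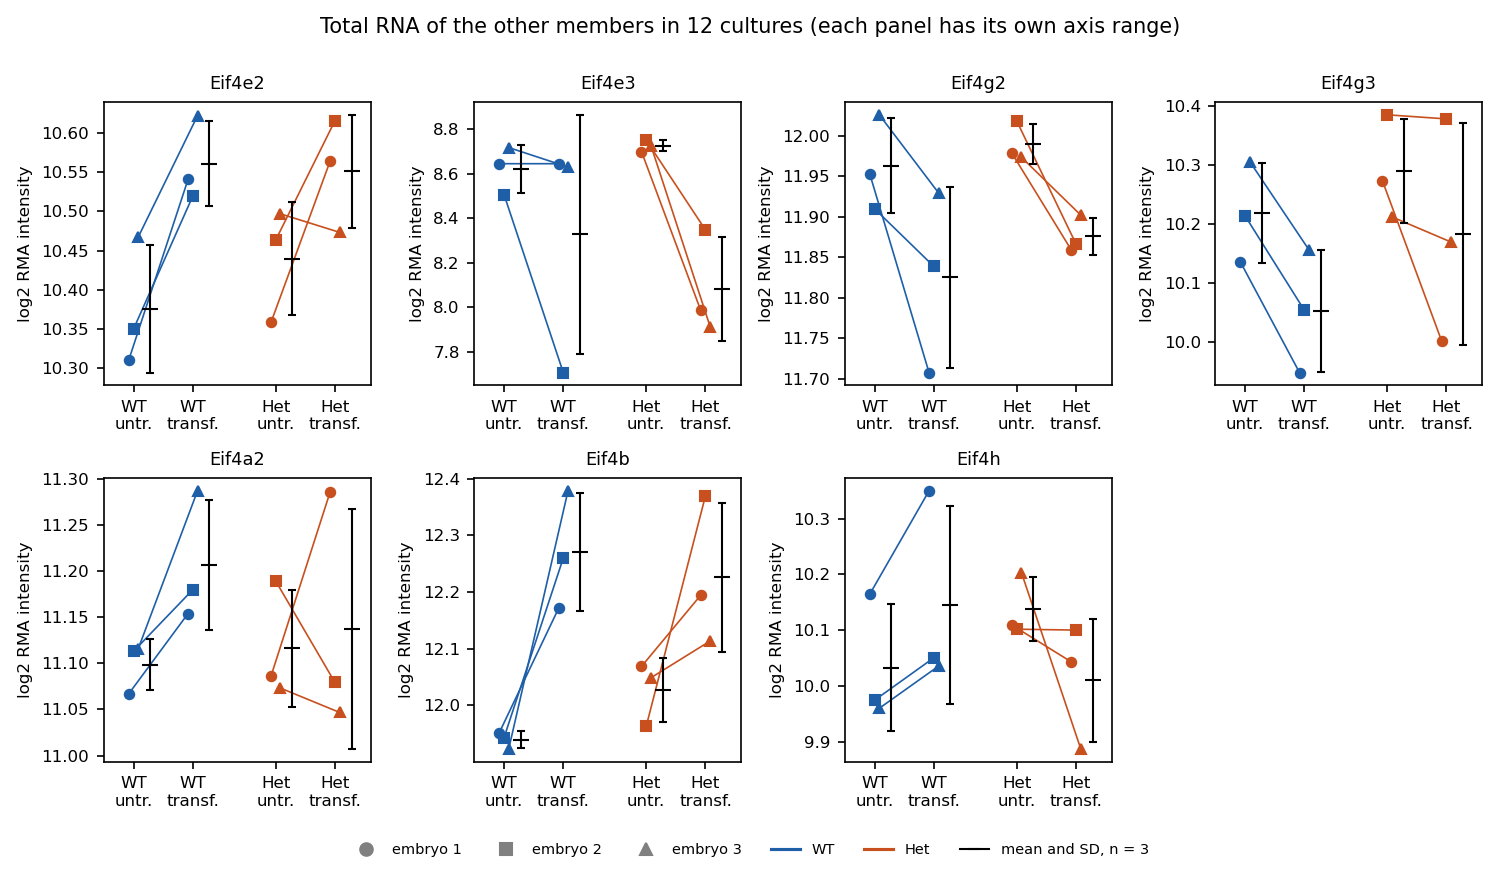
Log2 RMA intensity in total RNA of the other 7 measured members, one panel each with its own axis range; symbols give the embryo, lines join the cultures of an embryo and bars show mean ± SD of 3 cultures. Eif4b is higher in 6 of 6 embryos after transformation, Eif4g2 and Eif4g3 are lower in 6 of 6 on this scale (-0.01 for Eif4g2 with quantile normalization), and Eif4e3 is lower in 5 of 6.

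Eif4a2, which encodes a helicase subunit closely related to eIF4A1, kept a narrow range in total RNA, from 11.05 to 11.29 over the 12 cultures. Its differences for genotype (0.02 ± 0.08 and -0.07 ± 0.08) and transformation (0.06 ± 0.06) did not pass the test. Its polysomal values were wider. In transformed cells they were 7.86, 7.71 and 7.44 in WT and 7.17, 7.12 and 7.05 in Het cultures, so that all Het values lay below all WT values. The Het level was 68.1% of WT (-0.55 ± 0.31; exact permutation p = 0.1), and the corresponding TE difference was -0.48 ± 0.31 (71.5%; exact permutation p = 0.1), with the 3 Het cultures again below the 3 WT cultures. Neither passed limma's test across all genes (adjusted p = 1 for both). The TE values use the same polysomal arrays, so they are not a second observation. Any gene without overlap has an exact permutation p of 0.1 here, and the share of all such genes was not counted. In untransformed cells the sign was the opposite, 0.17 ± 0.31 on polysomes and 0.16 ± 0.31 in TE. The interaction of genotype and state did not pass either (polysomal -0.73 ± 0.45, adjusted p = 1). The WT polysomal array of small SD in this comparison, that of transformed embryo 3, held the lowest of the WT values, and without the arrays of small SD the polysomal difference was -0.67 (adjusted p = 0.983).

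The cofactor Eif4b rose with transformation in total RNA and Eif4h did not. Eif4b was 11.95, 11.94 and 11.92 in untransformed WT and 12.07, 11.96 and 12.05 in untransformed Het cells, and 12.17, 12.26 and 12.38 in transformed WT and 12.19, 12.37 and 12.11 in transformed Het cells. Every transformed culture was above every untransformed one. The transformed level was 120% of the untransformed level (0.26 ± 0.07; adjusted p = 0.0229 by limma; higher in 6 of 6 embryos, exact sign-flip p = 0.031). The adjusted p went above 0.05 when embryo 2 (0.0572) or 3 (0.0546) of WT was left out, and when embryo 1 (0.0556) or 2 (0.0552) of Het was. In WT cells alone Eif4b missed the threshold (0.33 ± 0.09; adjusted p = 0.054). Polysomal Eif4b was higher in 3 of 6 embryos (0.23 ± 0.28; adjusted p = 0.737), and its lowest value, 5.58, lay on the array of WT untransformed embryo 1. Untransformed Het cells read above WT in all 3 cultures, by only 0.09 ± 0.08 (exact permutation p = 0.1). Eif4h total RNA ranged from 9.89 to 10.35 and changed by -0.01 ± 0.06 over both genotypes, with changes of 0.19, 0.08 and 0.08 in WT and -0.07, 0.00 and -0.32 in Het embryos 1 to 3. The interaction for Eif4h was -0.24 ± 0.12 (adjusted p = 0.916 by limma).

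**Figure D3:**
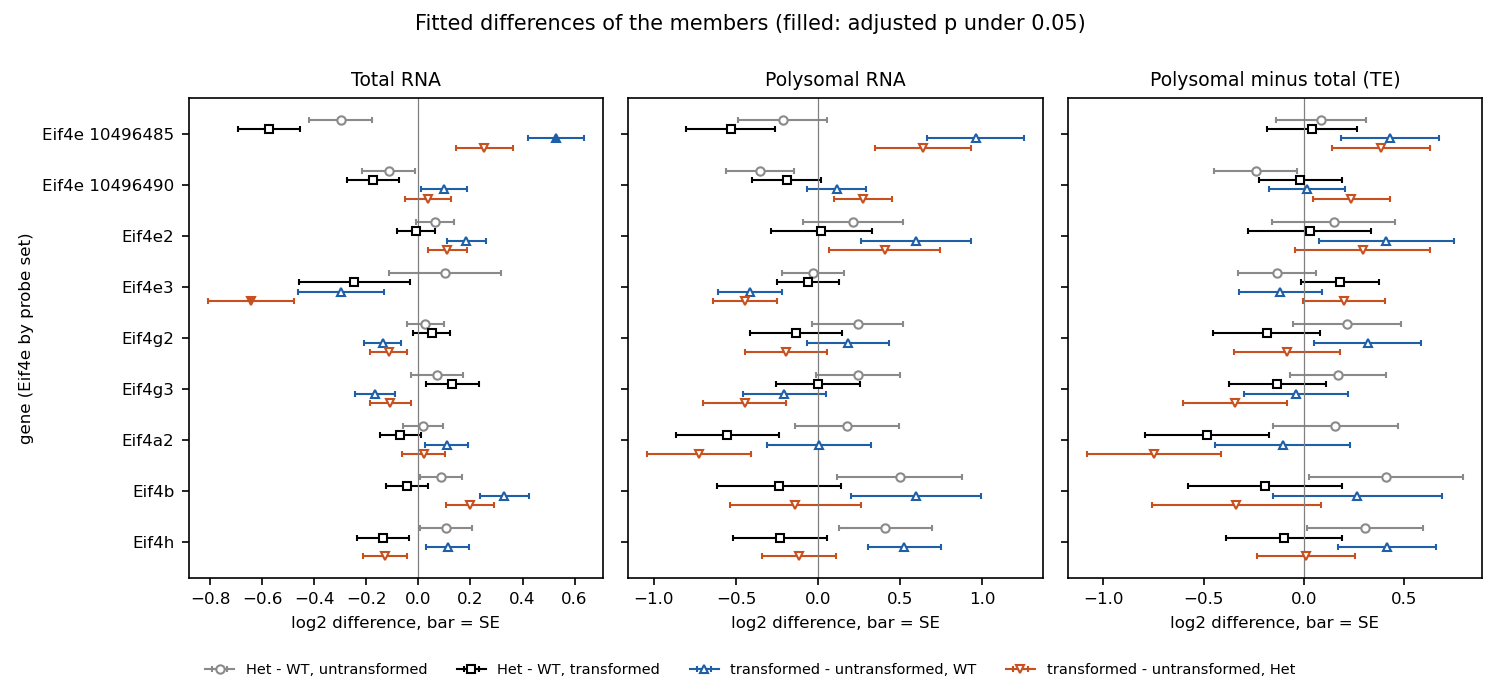
Log2 differences of the 9 member probe sets with their standard errors for genotype in each state and for transformation in each genotype; filled symbols mark an adjusted p under 0.05. In total RNA the filled symbols are Eif4e in WT cells (0.53) and Eif4e3 in Het cells (-0.64).

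Counted over the 8 genes, no member was called for genotype in total RNA, polysomal RNA or TE, nor for genotype by transformation, where 0% of genes were called in each of the 3 quantities (723, 314 and 289 genes at an unadjusted p under 0.05). Transformation called 3 of 8 members in total RNA over both genotypes, 2 higher and 1 lower, against 30.8% of all genes, a share near the background that says nothing particular of the members. In WT cells 1 of 8 was called, against 16.7% of all genes, and in Het cells 1 of 8, against 14.3%, which is also near the background. In polysomal RNA 0 of 8 members were called in WT, in Het and over both genotypes, where 1.28%, 1.79% and 7.72% of all genes were. In TE 0 of 8 were called, where 0.701%, 0.297% and 2.78% of all genes were. The polysomal counts in WT and over both genotypes and the TE count in WT changed without WT embryo 3, whose untransformed polysomal array had the largest SD (1.44) and whose transformed one had a small SD (1.25). Without this embryo the calls over all genes rose from 1145 to 2746 in polysomal RNA over both genotypes, and 4 members were among them (Eif4e 0.89, Eif4e2 0.72, Eif4b 0.59 and Eif4e3 -0.52). Without Het embryo 2 there were 497 calls, with Eif4e among them. In WT cells, with 2 embryos left, 3 members were called in polysomal RNA (Eif4b 1.31, Eif4e 1.14 and Eif4h 0.79) among 1735 genes against 190 before, and Eif4b in TE (1.04) among 881 genes against 104. At an unadjusted p under 0.05 with all embryos, transformation over both genotypes had 6 of 8 members in total RNA, 2 in polysomal RNA and 1 in TE, against 42.1%, 21.7% and 16.6% of all genes. The median change of the members in total RNA was 0.03, as was that of all genes tested. In polysomal RNA the difference of the responses (Het minus WT) was negative for 8 of 8 members, with a median of -0.35, against 52.9% of all genes and a median of -0.02. The other lists were negative for 21 of 31 other initiation factors (median -0.21) and 14 of 24 partners and regulators (-0.11). The members share arrays in this count. The WT untransformed group held both the lowest and the highest polysomal means over the 8 members, 5.98, 6.13 and 6.80 for embryos 1 to 3. The other polysomal arrays had means of 6.20 to 6.65. All 12 polysomal arrays enter each of these differences, and the part of single arrays in the shared sign was not tested. Without the 2 polysomal arrays of smallest SD, in a fit with no embryo block, 6 of 8 were negative, with a median of -0.38. With all arrays kept, 8 of 8 were negative with quantile normalization (median -0.29), centring (-0.33) or the mean of a gene's probe sets (-0.31).

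**Figure D4:**
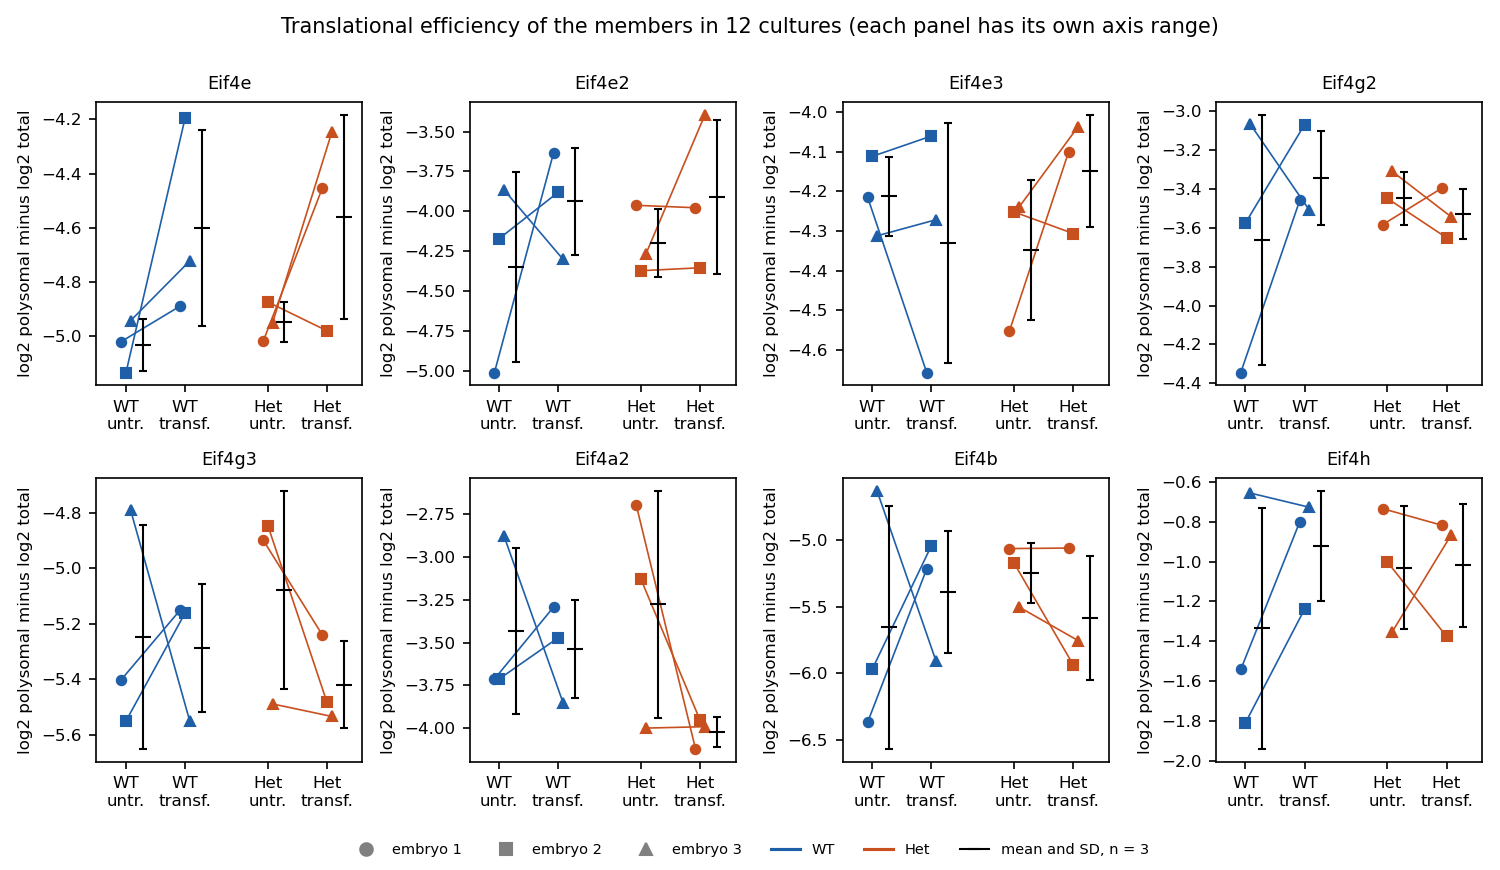
TE (polysomal minus total log2 value of the same culture) of the 8 measured members by group, with the embryo as the symbol and mean ± SD of 3 cultures as the bar. Eif4a2 in transformed cells has its 3 Het cultures at -4.12 to -3.96, below the 3 WT cultures at -3.85 to -3.29 (exact permutation p = 0.1, the smallest possible). The WT untransformed values of Eif4b range from -6.37 to -4.63.

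Among 28 listed partners and regulators of eIF4F, 24 were tested, and transformation over both genotypes called 8 higher and 1 lower in total RNA, or 37.5% of the list, against 30.8% of all genes (15.0% higher and 15.8% lower). The largest rise was that of Pdcd4, whose product binds and inhibits eIF4A, from 9.17 to 10.08 in WT and from 8.93 to 9.84 in Het cells (0.91 ± 0.10; adjusted p = 0.00108 by limma). Paip2, which encodes an inhibitor of the poly(A)-binding protein, rose by 0.37 ± 0.05 (adjusted p = 0.00188), and Pabpc1, which encodes that protein, by 0.27 ± 0.05 (adjusted p = 0.0073). Rptor and Mtor, of the kinase complex mTORC1 that controls the eIF4E-binding proteins, rose by 0.35 and 0.22, Gigyf2, a partner of eIF4E2, by 0.25, Larp4 by 0.33 and the eIF4E paralog Eif4e1b by 0.21. The Eif4e1b group means, 7.16 to 7.44, lay not far above the 40th percentile of the total arrays (6.80 to 6.93). Rps6kb2, an S6 kinase gene, fell by 0.20. In WT cells alone 5 were called higher (Gigyf2, Pabpc1, Paip2, Pdcd4 and Rptor) and in Het cells 2 (Paip2 and Pdcd4), or 20.8% and 8.33% of the list. Of all genes 7.62% and 5.68% were called higher, and 16.7% and 14.3% in either direction. On polysomes Paip2 rose by 1.44 ± 0.35 (adjusted p = 0.0453) and Eif4a3, an eIF4A relative of the exon junction complex, by 1.01 ± 0.19 (adjusted p = 0.0187), and Eif4a3 was also called in TE (0.89; adjusted p = 0.025). The polysomal calls were 8.33% of the list, against 7.72% of all genes, and the TE call was 4.17%, against 2.78%. The list median in total RNA was 0.10, against 0.03 over all genes. No partner was called for genotype. The largest differences in transformed cells, which did not pass, were those of Rptor (-0.25), Pdcd4 (-0.24) and Rictor (0.19) in total RNA. On polysomes they were those of Paip1 (1.11), Larp4 (-0.77) and Pabpc1 (-0.38), and in TE those of Paip1 (0.97), Larp4 (-0.72) and Mtor (-0.42). The polysomal mean of Paip1 was 3.83 in transformed WT and 4.94 in transformed Het cells. The WT mean lay not far above the 40th percentile of the arrays (3.13 to 3.32).

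Of 36 other initiation factors listed, 31 were tested, and 10 rose and 2 fell in total RNA over both genotypes, or 38.7% of the list, against 30.8% of all genes (15.0% higher and 15.8% lower). The risers included 5 genes of the ribosome-binding factor eIF3 (Eif3h by 0.33, Eif3i, Eif3k, Eif3l and Eif3m), the guanine nucleotide exchange factor genes Eif2b1 and Eif2b5, Eif1ad (0.42), Eif2a (0.39) and Eif2d (0.33). The fallers were Denr (-0.38) and Eif5a2 (-0.35). Mcts1, whose product pairs with that of Denr in reinitiation and ribosome recycling, had the largest polysomal change of this list. It went from 4.81 to 6.31 in WT and from 4.93 to 6.54 in Het cells (1.56 ± 0.21; adjusted p = 0.00588 by limma), and its TE rose by 1.51 ± 0.19 (adjusted p = 0.00524). Eif3k and Eif6 also rose on polysomes, by 0.64 and 0.53. Calls over both genotypes made up 9.68% of the list on polysomes and 3.23% in TE, against 7.72% and 2.78% of all genes. In WT cells 3 were called higher and 1 lower in total RNA, and in Het cells 2 higher, against 16.7% and 14.3% of all genes called in either direction. For genotype 0 of 31 were called.

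The 5 genes whose total RNA tracked the main Eif4e probe set most closely over the 12 cultures were Pnpla6 (Pearson r = 0.872), Rundc3b (0.872), Fbxo33 (0.865), Fam102a (0.864) and Olfr267 (0.856). They were picked from 14830 genes for this likeness, and the 12 cultures share 6 embryos, 2 genotypes and 2 states, so the coefficients are a description. Among the members themselves, the coefficient with Eif4e was highest for Eif4a2 (0.352) and Eif4b (0.349) and was negative for Eif4e3 (-0.366), Eif4g2 (-0.727) and Eif4g3 (-0.78). The group means of both scaffolds were lowest in the transformed WT cultures (11.83 for Eif4g2 and 10.05 for Eif4g3), where the mean of Eif4e was highest (9.62). These coefficients and means are on the deposited scale only. With quantile normalization the change with transformation was -0.01 for Eif4g2 and -0.10 for Eif4g3, so the scaffold coefficients may depend on the scaling.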

How the data were processed

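Per the submitters' processing notes and the series description, the authors deposited log2 RMA intensities for 24 arrays of the type Mouse Gene 1.0 ST by Affymetrix. The RMA version and chip definition are not given in the sources used here. Of 25668 probe sets, 20777 carried 1 gene symbol in the platform annotation, 232 several and 4659 none, and the last 2 classes were not analysed here. A lookup of gene identifiers in RefSeq changed 0 symbols. The brightest probe set over all arrays stood for each of 19661 genes, and 14830 genes were tested, namely those that exceeded the 40th percentile of an array 3 times or more. RMA compresses ratios, since it leaves nonspecific signal in low intensities, and normalizes away shifts shared by all genes. The number of arrays limits the precision.

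Linear models were fitted in R 4.3.3 by the lmFit and eBayes functions of limma 3.58.1. Calls needed a p under 0.05 after Benjamini-Hochberg adjustment over all genes. There were 7 contrasts each in total RNA, polysomal RNA and TE (21 comparisons). Genotype (Het minus WT) was fitted on 4 group means or on 6 embryo means, and transformation (transformed minus untransformed) and the interaction with embryo as a block. The second Eif4e probe set was fitted with 15613 probe sets. Single values were compared by exact permutation, two-sided, with a smallest p of 0.1 for 3 against 3, or by exact sign flips, with a smallest p of 0.031 for 6 embryos and 0.25 for 3. The pairing comes from the labels, which tie both states to an embryo. Deviations of an embryo's 2 cultures from their group means correlated at -0.058 to 0.219 in total RNA, -0.438 to 0.062 in polysomal RNA and -0.413 to 0.097 in TE. The fitting step was tested on simulated data.

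The text names the 10 members, genes of the 2 lists (partners and regulators, other initiation factors) that were called or, where none was, had one of the 3 largest changes, and the 5 genes with the highest Pearson r with Eif4e. The members and lists were chosen with earlier results of these data known. Alternatives covered normalization, centring, the filter, probe set choice, variance model, array weights, the block, weak polysomal arrays and leaving out each embryo.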

Additional observations from a re-analysis of the deposited data

Results flagged for a closer look

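Dixon's criterion was applied to 27 sets of 6 embryo changes with transformation, 9 each in total RNA, polysomal RNA and TE, and chance meets it in about 1 of 20 sets. A single embryo lay far below the others in 3 of the 9 sets in total RNA, and in 0 of 9 in polysomal RNA and 0 of 9 in TE. For the main Eif4e probe set (10496485) this was Het embryo 2, with a change of -0.0345 against 0.38 to 0.62 in the other 5 embryos. For the second Eif4e probe set (10496490) it was Het embryo 1, with -0.18 against 0.05 to 0.19. For Eif4e2 it was Het embryo 3, with -0.0236 against 0.15 to 0.23. The 3 embryos are all Het but differ from each other, and no embryo stood apart in more than 1 set.

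Eif4h total RNA was higher after transformation in 3 of 3 WT embryos, by 0.08 to 0.19. It was lower in 3 of 3 Het embryos, with changes of -0.32 to -0.002. The sign in Het embryo 2 thus rests on a very small change (-0.002). The mean Het change was -0.13 on the deposited scale and -0.08 with quantile normalization, a shift larger than that change. The difference of the responses was -0.24 on the log2 scale, with an unadjusted limma p of 0.0837, an adjusted p of 0.916 and an exact permutation p of 0.1, the smallest this design allows. Eif4h was picked by a search of the same 27 sets for opposite signs in the genotypes, and no other set met this rule. How often chance meets the rule in that many sets was not tested, so a difference in response was not established.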

How the results depend on the processing

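Over 2320 values of the 168 member differences under alternative settings, 138 differed in sign from the main value. None of these belonged to the 5 called differences. In every genotype and interaction comparison 0 members were called under all settings run, with the embryo number as a replicate block across genotypes included. The count of members called for transformation in total RNA of WT cells was 1 and became 2 (Eif4b added) with quantile normalization, centring, trend and robust settings or no replicate block, and 0 to 2 when 1 embryo was left out. In Het cells it was 1 and became 0 with no replicate block (Eif4e3, adjusted p = 0.0596 by limma), and 0 to 1 with 1 embryo left out. Over both genotypes it was 3, and 1 to 3 with 1 embryo left out. Eif4e2 was called in addition with quantile normalization (adjusted p = 0.0431 by limma) or no replicate block (0.0446). In polysomal RNA over both genotypes it was 0 and became 1 (Eif4e) with quantile normalization, centring or no replicate block. It became 2 (Eif4e and Eif4e3) with array weights or without the 2 weak polysomal arrays, and was 0 to 4 with 1 embryo left out. The fit without the 2 weak arrays also had no embryo block, since dropping them left unpaired cultures. For Eif4e the adjusted p by limma was 0.0185 in that fit and 0.0188 with no block alone. In WT cells alone the count ranged from 0 to 3 in polysomal RNA and from 0 to 1 in TE with 1 embryo left out. In TE over both genotypes it was 0, and 1 (Eif4e) with array weights. The cause of these shifts was not tested. Where an embryo was left out, the fit had fewer cultures. Polysomal signals near the 40th percentile limit what can be seen for Eif4e and Eif4e3 on polysomes.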
